A study of Rattus norvegicus with 8 samples.

Results

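The genes described here encode the MHC class II antigen-presenting machinery of the rat. They were Cd74, RT1-Da, RT1-Db1, RT1-Ba, RT1-Bb, RT1-DMa, RT1-DMb and Ciita, 8 of the 15154 genes that array probes matched by RefSeq accession. They were chosen by gene symbol, and 10 probes on the array belonged to them. The 8 one-colour Agilent arrays carried RNA from testis cells sorted by flow cytometry with an antibody to CD9, a tetraspanin on the surface of spermatogonia and of other cells. The cells came from 4 samples of aged rats (21 months) and 4 samples of young rats (4 months), all of the Sprague-Dawley strain and all carrying a germ cell-specific GFP transgene. The labels name neither the promoter of the transgene nor the number of rats behind a sample, so every p-value below rests on sample-to-sample spread that could be technical.

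MHC class II molecules are pairs of an alpha and a beta chain that present peptides from the endosome to CD4-positive T cells. CD74, the invariant chain, holds a new pair in shape and blocks its groove until endosomal proteases such as cathepsin S cut it away, and the DM pair then exchanges the remaining fragment for antigen peptide. CIITA is the co-activator that switches these genes on together, and dendritic cells, B cells and macrophages are the cells known for carrying them, the last of these also in the testis interstitium.

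The 8 genes fell into those whose signal varied widely between arrays, those that varied little, and those too dim to test. Cd74, RT1-Da, RT1-Db1 and RT1-Bb had lower means in aged than in young cells, by 1.83-fold, 1.86-fold, 1.47-fold and 1.75-fold, and none of these differences passed the test. RT1-DMa and RT1-DMb varied by 1.42-fold and 1.53-fold over all arrays. The aged and young values overlapped for each of the 6 genes tested, and for Cd74 and the D and B chains young replicate 1 lay among or below the aged arrays. Signals are given below as log2 of the processed signal minus the 75th percentile of the probes of the same array, so 0 is the level of that percentile and 1 unit is a doubling. Differences were tested with limma over the 10236 named genes that were bright enough, at a Benjamini-Hochberg adjusted p under 0.05.

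Promoters of the genes that varied together are shown first because class II genes are known to share 2 promoter elements, the X box, which binds the RFX complex, and the Y box, which binds NF-Y and holds the letters CCAAT. The sequences are those of RefSeq on build GRCr8, 250 bases before to 50 bases after the gene's start, and 6 of the 8 genes had one. Capitals mark CCAAT and CTNGNAAC on either strand. The window of Cd74 lay at chr18:56526956-56527255 (+ strand), that of RT1-Da at chr20:4515165-4515464 (+ strand) and that of RT1-Db1 at chr20:4560113-4560412 (- strand). RT1-Bb lay at chr20:4604069-4604368 (- strand), and RT1-DMa, whose signal varied less, at chr20:4712286-4712585 (- strand).
Cd74 promoter: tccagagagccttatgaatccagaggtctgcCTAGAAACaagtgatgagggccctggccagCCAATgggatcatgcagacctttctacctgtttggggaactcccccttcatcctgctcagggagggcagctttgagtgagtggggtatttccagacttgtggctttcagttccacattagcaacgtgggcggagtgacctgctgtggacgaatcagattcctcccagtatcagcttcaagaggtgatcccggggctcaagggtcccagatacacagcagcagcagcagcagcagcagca
RT1-Da promoter: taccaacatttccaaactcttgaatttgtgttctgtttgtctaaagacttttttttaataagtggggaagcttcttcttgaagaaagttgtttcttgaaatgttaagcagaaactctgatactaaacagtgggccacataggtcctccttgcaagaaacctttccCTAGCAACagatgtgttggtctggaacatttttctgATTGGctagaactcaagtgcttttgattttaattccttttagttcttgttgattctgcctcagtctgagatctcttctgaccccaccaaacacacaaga
RT1-Db1 promoter: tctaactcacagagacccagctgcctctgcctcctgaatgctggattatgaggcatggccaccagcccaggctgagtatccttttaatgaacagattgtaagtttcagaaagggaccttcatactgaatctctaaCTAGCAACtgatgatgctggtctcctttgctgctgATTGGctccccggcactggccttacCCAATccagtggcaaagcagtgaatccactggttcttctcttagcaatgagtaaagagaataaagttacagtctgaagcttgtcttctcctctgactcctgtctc
RT1-Bb promoter: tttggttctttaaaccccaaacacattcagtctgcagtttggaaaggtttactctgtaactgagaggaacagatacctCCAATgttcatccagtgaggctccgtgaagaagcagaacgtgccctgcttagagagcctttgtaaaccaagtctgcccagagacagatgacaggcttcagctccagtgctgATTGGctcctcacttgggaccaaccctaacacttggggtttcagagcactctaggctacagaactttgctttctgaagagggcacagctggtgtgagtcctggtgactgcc
RT1-DMa promoter: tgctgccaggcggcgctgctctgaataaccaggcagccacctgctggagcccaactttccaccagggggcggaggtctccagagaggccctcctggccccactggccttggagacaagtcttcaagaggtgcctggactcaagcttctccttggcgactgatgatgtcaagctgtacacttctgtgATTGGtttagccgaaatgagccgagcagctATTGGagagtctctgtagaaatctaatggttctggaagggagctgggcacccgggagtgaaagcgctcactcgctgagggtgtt

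CCAAT was found on either strand in all 6 promoter windows, RT1-DMa among them, and in 37.5% of the 33469 rat promoters of the same length. The stricter X box letters CTNGCAAC were present in RT1-Da, RT1-Db1 and RT1-Ba, 3 of 6, against 3.64% of all promoters. The wider letters CTNGNAAC, chosen after the sequences were seen, added Cd74 and were present in 13.8% of all promoters. In RT1-Da the X letters began 36 bases before the nearest downstream Y letters, in RT1-Db1 35 bases, in RT1-Ba 36 bases and in Cd74 30 bases, and no X match overlapped a Y match. RT1-Bb and RT1-DMa held no match to either form of the X letters in this window.

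Cd74, the invariant chain, had log2 signals of −0.73, −1.38, −0.52 and 0.60 on aged arrays 1 to 4, against −1.10, 1.21, 0.90 and 0.45 on young arrays 1 to 4. Aged replicates 1 to 3 and young replicate 1 were low, whereas aged replicate 4 lay above young replicate 4. The aged mean was −0.51 ± 0.83 and the young mean 0.37 ± 1.02 (SD, n = 4 each), a difference of −0.87 ± 0.54 (SE, limma adjusted p = 0.288). The 95% interval of the difference ran from −2.09 to 0.35, and the exact two-sided permutation test over the arrays gave p = 0.257, where 4 against 4 arrays allow no p below 0.0286. In sorted cells measured in bulk, fewer cells of a type and less RNA per cell cannot be told apart.

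RT1-Da, the alpha chain of the D molecule, followed the same course at −2.18, −3.11, −2.37 and −1.75 on aged arrays 1 to 4, against −3.14, −0.62, −0.93 and −1.15 on young arrays 1 to 4. All aged arrays lay below young arrays 2 to 4, and young replicate 1 was the lowest of all. The difference was −0.90 ± 0.52 (SE, adjusted p = 0.261, exact permutation p = 0.229).

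RT1-Db1, the beta chain of the D molecule, had 2 probes. The brighter, used in the test, gave −0.94, −1.05, −0.63 and −0.35 on aged arrays 1 to 4, against −1.12, 0.31, 0.26 and −0.20 on young arrays 1 to 4. Again every aged array lay below young arrays 2 to 4 and young replicate 1 was lowest. The difference was −0.55 ± 0.31 (SE, adjusted p = 0.245, exact permutation p = 0.2). The other probe ran the same way, with −1.55, −2.38, −1.67 and −1.26 on the aged and −2.21, −0.17, −0.61 and −0.75 on the young arrays, a mean difference of −0.78. The related gene RT1-Db2 had no matched probe, and whether these probes also bind its transcript was not tested.

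RT1-Bb, the beta chain of the B molecule, was measured by 1 of its 2 probes, at −0.020, −1.01, 0.22 and 0.72 on aged arrays 1 to 4, against −0.25, 1.005, 1.27 and 1.12 on young arrays 1 to 4. Young replicate 1 was lower than 3 of the 4 aged arrays, and the other young arrays were above all aged ones. The difference was −0.81 ± 0.42 (SE, adjusted p = 0.213, exact permutation p = 0.171). Its second probe was not well above background on any array. RT1-Ba, the alpha chain of the B molecule, was above background on 0 of 4 aged and 1 of 4 young arrays, with values of −6.64 to −6.20 in aged and −6.93 to −5.65 in young cells. It was not tested, so the B molecule was followed here by its beta chain alone.

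RT1-DMa and RT1-DMb encode the peptide editor DM and varied over a narrower range. RT1-DMa had −1.78, −1.54, −1.53 and −1.35 on aged arrays 1 to 4, against −1.58, −1.28, −1.39 and −1.61 on young arrays 1 to 4. RT1-DMb had −1.50, −1.41, −1.36 and −1.05 on the aged arrays, against −1.33, −1.12, −1.45 and −1.66 on the young arrays. Here young replicate 1 lay within the range of the other arrays for both genes. RT1-DMa differed by −0.09 ± 0.13 (SE, adjusted p = 0.668, 95% interval −0.38 to 0.21) and RT1-DMb by 0.06 ± 0.15 (SE, adjusted p = 0.807, 95% interval −0.28 to 0.39). The intervals leave out a fall as large as the mean difference of Cd74, RT1-Da or RT1-Bb, but a test of the difference between genes was not run.

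**Figure D1:**
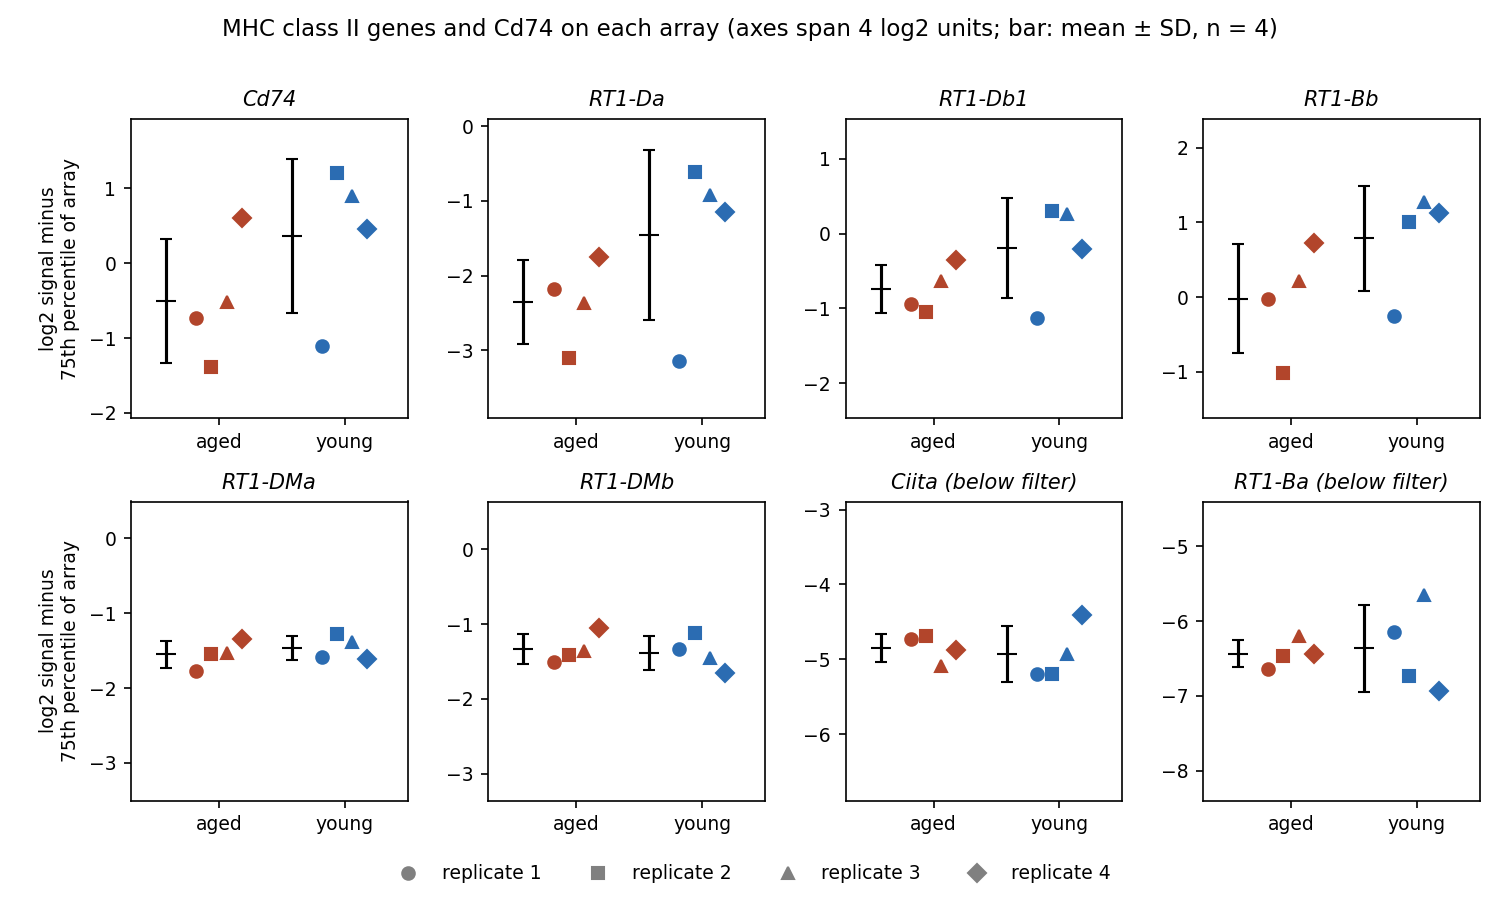
Log2 signal of each class II gene and Cd74 on the 8 arrays, minus the array's 75th percentile, with aged samples in red on the left and young samples in blue on the right of each panel. Each point is an array, with its marker shape giving the replicate number, and bars are means ± SD (n = 4). In Cd74, RT1-Da, RT1-Db1 and RT1-Bb the circle of young replicate 1 lies with the aged arrays, while the points of RT1-DMa and RT1-DMb lie close together, between −1.78 and −1.05.

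Ciita, which encodes the co-activator of the class II promoters, was near background. Its probe was well above background on 3 of 4 aged and 2 of 4 young arrays and so did not pass the filter, which asks for all arrays of a group. Its values were −4.73, −4.69, −5.09 and −4.88 on aged arrays 1 to 4, against −5.20, −5.19, −4.94 and −4.40 on young arrays 1 to 4. The groups overlapped, and young replicate 1, low in Cd74, differed little here from young replicate 2, high in Cd74. Among the young arrays the probe was dimmest on both of these, at 9.08 and 11.3 intensity units. So near background, their likeness cannot show whether Ciita followed Cd74. Of the other class II genes, RT1-DOa and RT1-Ha were not well above background on any array. RT1-DOb, a chain of DO, the inhibitor of DM, was above background on 0 of 4 aged and 2 of 4 young arrays.

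Within the groups, Cd74 and the chains of the D and B molecules were among the most variable genes measured. The pooled SD within the groups was larger than that of 98.4% of all genes tested for Cd74, 98.1% for RT1-Da, 94.6% for RT1-Bb and 89.6% for RT1-Db1. For RT1-DMb it was larger than that of 51.0% of the genes and for RT1-DMa of 30.8%. The distance between the highest and the lowest of the 8 arrays was 6.01-fold for Cd74 and 5.73-fold for RT1-Da, against 1.53-fold for RT1-DMb and 1.42-fold for RT1-DMa.

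The likeness of 2 genes was measured as the root mean square difference of their log2 values over the 8 arrays, each gene centred on its own mean. Among 10233 genes compared with Cd74, RT1-Da was the 7th nearest with a difference of 0.257, RT1-Bb the 22nd (0.336) and RT1-Db1 the 110th (0.429). RT1-DMa ranked 1834 (0.818) and RT1-DMb 2300 (0.879), where the median gene stood at 1.01. The measure counts the width of the spread as well as its course, and a gene at 1 constant level would stand at 0.917. RT1-DMa and RT1-DMb, like Cd74, had their highest young value on young replicate 2 and their highest aged value on aged replicate 4. The 10 nearest genes lay at 0.204 to 0.280. Among them were Clec4a3, a C-type lectin receptor, and Ctss, the protease cathepsin S. They also held Fcgr1a, an Fc receptor for IgG, Fcgr2al1, the peptidase Dpp7, RT1-Da, the matrix protein Tgfbi, the glutathione transferase Gstp1 and Arhgdib, an inhibitor of small GTPases. The means of all 10 were lower in aged cells, by −0.96 to −0.58, and none passed (limma adjusted p from 0.237 to 0.518). As these genes were chosen for their nearness to Cd74 on the same arrays, the shared sign follows from the choice. The 8 points of such a comparison share their arrays and scaling.

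**Figure D2:**
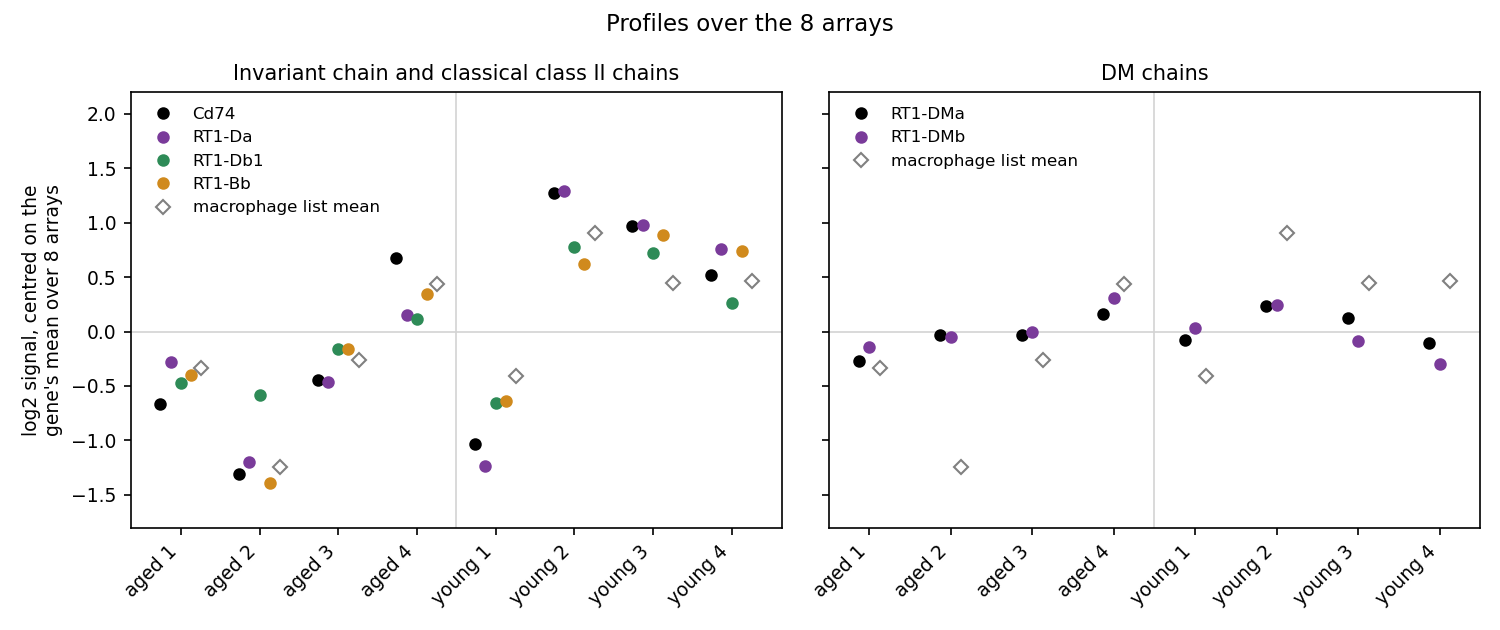
Log2 signal of each gene on the 8 arrays, centred on the gene's mean, for Cd74 and the D and B chains (left) and the DM chains (right), with the mean of 15 macrophage markers as open diamonds and aged arrays left of young arrays in each panel. On the left the points are low on aged replicate 2 and young replicate 1 together with the macrophage mean (−1.24 and −0.41), while the DM chains stay within 0.31 of their means.

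Young replicate 1 decided whether Cd74 and the D and B chains were called. With all arrays 0 of the 6 genes tested passed, against 67 of all 10236 genes (0.655%), and 5 of 6 had a lower mean in aged cells, against 36.6% of all genes. Their median difference was −0.68, against 0.11 over all genes tested. None of the 6 reached an unadjusted limma p under 0.05, against 31.4% of all genes. The groups overlapped in all 6, while they did not in 14.3% of all genes, and in 4.12% every aged value lay below every young one. Without young replicate 1, Cd74 changed by −1.36 (adjusted p = 0.0404), RT1-Da by −1.46 (adjusted p = 0.0104), RT1-Db1 by −0.86 (adjusted p = 0.0154) and RT1-Bb by −1.15 (adjusted p = 0.0391), in limma on 7 arrays. These 4 of 6 genes stood beside 36.9% of all genes called without that array and 14.6% called lower, and leaving out the lowest young array widens such differences by construction. RT1-DMa (−0.13) and RT1-DMb (0.08) did not pass there either. Leaving out any other array gave no call among the 6 genes (0.00977% of all genes without young replicate 2 and 0 for the rest), with Cd74 between −1.24 without aged replicate 4 and −0.58 without aged replicate 2, and RT1-Bb at −0.48 without aged replicate 2. Weighting the arrays by their fit gave young replicate 1 a weight of 0.180, against 0.698 to 2.06 for the others, and Cd74 (adjusted p = 0.0307), RT1-Da (0.00836), RT1-Db1 (0.0183) and RT1-Bb (0.0212) were then called lower, against 16.3% of all genes.

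**Figure D3:**
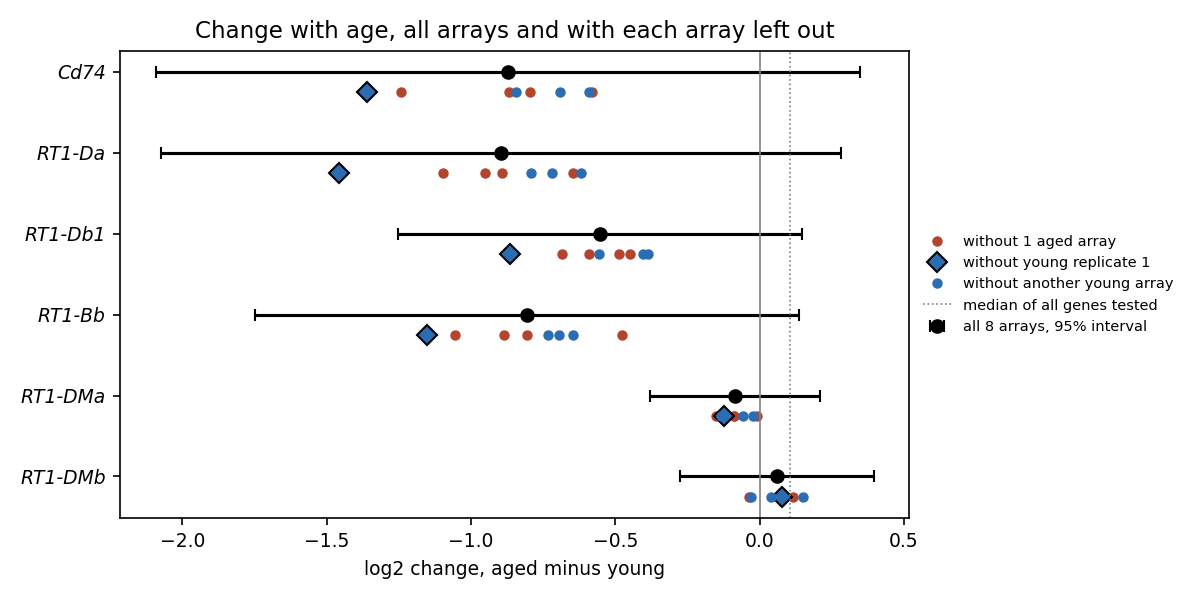
Log2 change of the 6 genes tested, aged minus young, with all 8 arrays (black points with 95% intervals) and with 1 array left out (coloured points below them, the diamond for young replicate 1). The intervals of all 6 genes include 0, and the diamond is the lowest coloured point for Cd74, RT1-Da, RT1-Db1 and RT1-Bb, at −1.36, −1.46, −0.86 and −1.15.

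Across the series, the 75th percentile of the probe signals was 331 to 524 intensity units on the aged and 326 to 503 on the young arrays, and 63.0% to 72.0% of probes were well above background. The 67 calls comprised 51 genes higher and 16 lower in aged cells. The split was 365 to 268 with normexp background correction, 55 to 42 with the percentile taken over spots and 6 to 998 with scaling to spike-in RNA. All arrays shared 1 slide and 1 scan, with each age in a row of its own, so slide row and age cannot be told apart. Of 18 markers of undifferentiated spermatogonia 14 were bright enough to test, Cd9 among them, and Thy1 was not well above background on any array. Cd9, the target of the sort, differed by −0.16 ± 0.16 between aged and young cells (SE, limma adjusted p = 0.492).

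The mean of the macrophage markers tested, each centred on its own mean, ran with Cd74 over the arrays, but not every marker did. Of 20 markers on the list 15 were tested, 14 of them with lower means in aged cells (median −0.62). None passed (4 at an unadjusted limma p under 0.05, against 31.4% of all genes). Their summed signal, in multiples of the array's 75th percentile, was 7.71 to 20.9 in aged and 11.1 to 31.5 in young cells. The lowest sums were those of aged replicate 2 (7.71) and young replicate 1 (11.1), which also had the lowest Cd74. The sums rested mostly on Aif1 and Lyz2. The mean of the centred markers, which counts each alike, was lowest on the same arrays (−1.24 and −0.41). Itgam and Ccr2 were not well above background on any array. Adgre1, the F4/80 antigen, differed by −1.97 ± 0.44 (adjusted p = 0.0561), Cd68, a lysosomal protein of macrophages, by −0.49 ± 0.34 (adjusted p = 0.339) and Csf1r, the receptor for the macrophage growth factor CSF1, by −0.22 ± 0.13 (SE, adjusted p = 0.265). Adgre1 was dim in aged cells, at −5.86 to −4.00, where Ciita, at −5.20 to −4.40, did not pass the filter. How far background shaped the Adgre1 difference was not tested. Csf1r, unlike Cd74, was lower on aged replicate 4 (−2.47) than on aged replicate 2 (−2.20). Cx3cr1, a further marker of the list, had its highest young value on young replicate 1 (0.097). Without young replicate 1, 5 of the 15 passed as lower, against 14.6% of all genes. The part of macrophage RNA in the Cd74 and class II values was not tested.

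For dendritic, B and T cell markers, the highest young sum was that of young replicate 1, on which Cd74 was low. The sums rested mostly on Batf3 and Fscn1 (dendritic), Fcrla (B cell) and Cd3d (T cell), and other markers did not all peak there. Clec10a, a dendritic marker, was at −0.78 on young replicate 1 and −0.26 on young replicate 2, and the B cell marker Pax5 at −0.61 and −0.59. Of 12 dendritic cell markers 3 were tested (summed signal 2.75 to 3.23 in aged and 2.96 to 3.92 in young cells). Xcr1, Clec9a, Ccr7 and Irf4 were not well above background on any array, and Itgax had no matched probe. Of 8 B cell markers 3 were tested, with sums of 16.3 to 19.7 in aged and 13.9 to 19.5 in young cells, and Cd79b, Blnk and Cd22 were below background throughout. Of 8 T cell markers 2 were tested, with sums of 0.291 to 0.342 in aged and 0.283 to 0.368 in young cells, and Cd3e, a chain of the T cell receptor complex, differed by 0.27 ± 0.17 (SE, adjusted p = 0.295). Cd3g, Cd8a, Cd2 and Cd5 were below background on all arrays, and Ptprc, the pan-leukocyte antigen CD45, did not pass the filter.

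Markers of stromal, spermatid, Sertoli and Leydig cells also had their lowest aged sum on replicate 2 and their lowest young sum on replicate 1. Of 12 stromal markers 10 were tested, all with lower means in aged cells (median −1.37). None passed (10 at an unadjusted limma p under 0.05, against 31.4% of all genes). Their summed signals were 1.77 to 3.73 in aged cells, against 2.97 in young replicate 1 and 11.1 to 12.4 in the other young samples, and Lum was below background on all arrays. All 12 spermatid markers had lower means in aged cells (median −0.76), and none passed (6 at an unadjusted limma p under 0.05, against 31.4% of all genes). Their sums were 244.7 to 493 in aged cells, against 333 in young replicate 1 and 612 to 815 in the other young samples. Without young replicate 1, 10 of 10 stromal and 12 of 12 spermatid markers passed as lower, against 14.6% of all genes.

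The lowest Sertoli cell sums were those of aged replicate 2 (5.44) and young replicate 1 (3.63), with 8.79 to 12.6 on the other aged and 8.42 to 8.85 on the other young arrays (3 of 9 tested, Rhox5 called higher with adjusted p = 0.0465). The sum rested mostly on Clu, with log2 signals of 1.95 on aged replicate 2 and 1.545 on young replicate 1. Inha (−0.044) and Rhox5 (−0.76) instead had their highest aged values on aged replicate 2. On young replicate 1 Inha was at its lowest young value (−1.20), whereas Rhox5 was not. The Leydig cell sums were also lowest on these 2 arrays, at 0.894 on aged replicate 2 and 1.02 on young replicate 1, with 1.41 to 1.88 on the other aged and 1.29 to 2.16 on the other young arrays (5 of 7 tested, none called, Lhcgr below background on all arrays). The Leydig sum rested mostly on Insl3. Cyp17a1 was at −3.64 on young replicate 1 and lower, at −3.68, on young replicate 2. The other Leydig genes tested were lowest of each age on aged replicate 2 and young replicate 1. Spermatocyte markers did not follow this course, with sums of 60.1 to 72.4 in aged and 32.7 to 37.8 in young cells, and 8 of 12 tested were called higher, against 0.655% of all genes called. The part of these cells in the class II values was not tested.

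Among the proteases that prepare peptides or cut the invariant chain, 7 of 8 genes were tested, 0 passed (0 at an unadjusted limma p under 0.05) and the median difference was −0.00097. Ctss, the protease best known for cutting CD74 in antigen-presenting cells, had the widest spread of the 7 on these arrays. It gave −1.78, −2.88, −1.72 and −0.35 on aged arrays 1 to 4, against −2.50, −0.097, −0.71 and −1.10 on young arrays 1 to 4 (difference −0.58 ± 0.60, SE, adjusted p = 0.518). Young replicate 1 and aged replicate 2 were the low arrays, as for Cd74, and the groups overlapped. Ctsb, a lysosomal cysteine protease, was also lowest on these 2 arrays, over a narrower range (3.72 to 4.32 in aged and 3.81 to 4.30 in young cells). Ctsd, an aspartic protease of lysosomes, differed by 0.21 ± 0.12 (adjusted p = 0.247), Sppl2a, which cuts the membrane stub of CD74, by −0.23 ± 0.16 (adjusted p = 0.335) and Lgmn, the asparaginyl protease, by −0.15 ± 0.11 (SE, adjusted p = 0.362).

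The factors that bind class II promoters were bright enough in 8 of 10 genes, and 0 passed (2 means lower, 6 higher, median 0.15). An unadjusted limma p under 0.05 was reached by 2, against 31.4% of all genes. Nfya, a subunit of the Y box factor NF-Y, had −3.50, −3.49, −3.19 and −3.35 on aged arrays 1 to 4, against −3.34, −2.75, −2.85 and −2.49 on young arrays 1 to 4. Young replicate 1 lay among the aged values. The difference was −0.52 ± 0.18 (SE, adjusted p = 0.0999), and −0.68 without young replicate 1 (adjusted p = 0.00802, against 36.9% of all genes called). Rfxap, a subunit of the X box complex RFX, had a difference of the other sign, 0.30 ± 0.11 (SE, adjusted p = 0.117), and passed as higher without young replicate 1 (0.36, adjusted p = 0.0289), as did the co-activator Crebbp, named after its values were seen. Creb1, which binds beside the X box, differed by −0.19 ± 0.10 (SE, adjusted p = 0.216).

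Interferon gamma is the best known inducer of Ciita. In its list 9 of 12 genes were tested and 0 passed (4 means lower, 5 higher, median 0.00065). An unadjusted limma p under 0.05 was reached by 3, against 31.4% of all genes. Ifng itself was not well above background on any array. Gbp2, an interferon-induced GTPase, had −1.30, −1.77, −1.26 and −1.12 on aged arrays 1 to 4, against −1.18, −0.62, −0.88 and −0.79 on young arrays 1 to 4. Young replicate 1 lay among the aged values and the other young arrays were above all aged ones. The difference was −0.50 ± 0.17 (SE, adjusted p = 0.102), and −0.60 without young replicate 1 (adjusted p = 0.0247). Without that array 2 of the 9 genes passed as lower, against 14.6% of all genes. The chemokine Cxcl9 differed by −0.60 ± 0.24 (SE, adjusted p = 0.135).

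Partners and turnover factors of class II gave 6 tested genes of 11, of which 0 passed (0 at an unadjusted limma p under 0.05, median −0.07). Marchf8, a ubiquitin ligase that removes class II from the surface, differed by 0.20 ± 0.11 (adjusted p = 0.247), Lag3, a receptor that binds class II, by −0.23 ± 0.14 (adjusted p = 0.289) and Cxcr4, which pairs with CD74 as a receptor for MIF, by −0.23 ± 0.24 (SE, adjusted p = 0.524). Cd86, a co-stimulator on antigen-presenting cells, was not well above background on any array.

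The class I pathway, which loads peptides made by the proteasome, had lower means in aged cells in 10 of 13 genes tested of 15 listed (median −0.26). Of these 13 genes 0 passed (6 at an unadjusted limma p under 0.05, against 31.4% of all genes). Tap1, the peptide transporter, differed by −0.72 ± 0.16 (adjusted p = 0.0561), RT1-A2, a class I heavy chain whose near-identical relatives may share its probe, by −0.41 ± 0.13 (adjusted p = 0.0859) and the chaperone Calr by 0.32 ± 0.11 (SE, adjusted p = 0.0948). In Tap1, unlike in Cd74, the groups did not overlap, with −5.85 to −5.29 in aged and −4.99 to −4.54 in young cells. These signals were dim, and Ciita, at −5.20 to −4.40, did not pass the filter. A gene could pass on the arrays of 1 age alone. How far background shaped the Tap1 difference was not tested. Young replicate 1, at −4.96, stood with the young arrays there. Without that array 6 of the 13 genes passed as lower, Tap1 and RT1-A2 among them, against 14.6% of all genes. Calr passed as higher there, and 36.9% of all genes were called in either direction.

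**Figure D4:**
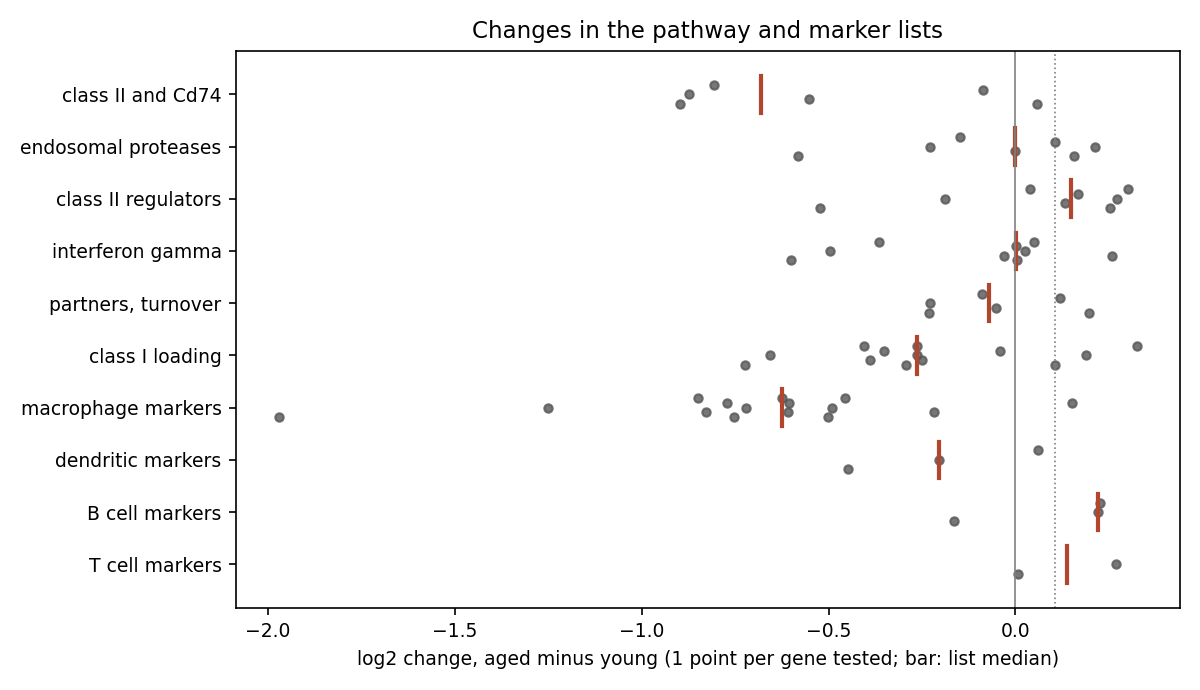
Log2 change of each tested gene, aged minus young, in the class II list, 5 pathway lists and 4 lists of immune cell markers, with list medians as red bars, 0 as a solid line and the median of all genes (0.11) as a dotted line. The medians of the class II list (−0.68) and of the macrophage list (−0.62) are the lowest shown, and those of the proteases and interferon genes lie near 0.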

How the data were processed

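Age in the labels put the 8 arrays into 2 groups. The deposited processed signal is, per the file headers, an intensity from Agilent Feature Extraction 10.7.3.1 (12.5 in the submitters' processing notes), with background subtracted and spatial trends removed, from probes designed on rat build rn4. The deposited median spot and background signals are unscaled intensities, and 4 further columns of the deposited files mark each spot with a 0 or a 1. The authors' deposited table holds log2 values centred per probe on the median of the arrays (column medians −0.14 to 0.09). Set against the scanner signals of 17605 bright probes, its columns had slopes from 0.993 to 1.000, which settles scale and direction. Its scaling between arrays is not given in the sources used here.

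Control and outlier spots were left out, log2 signals were averaged per probe, and the 75th percentile over the 30367 probes of each array was subtracted. Accessions matched 17998 probes to RefSeq genes (GRCr8). Probes entered the test when a share of 0.5 or more of their spots passed the background flag on all arrays of either age, with at least 2 values per age, and the brightest probe stood for a gene. No spot was saturated. Aged and young arrays were compared in R 4.3.3 by a two-sided test in limma 3.58.1 (eBayes, 9.15 degrees of freedom), tested on simulated data.

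The genes, lists, promoter letters and alternatives were chosen with earlier results of these data known. Named genes are the 8 genes themselves, up to 3 with the smallest p and any called gene in each pathway list, the 10 nearest to Cd74, and Adgre1, Cd68, Csf1r, Ptprc, Itgax, Cd3e and Cd9. A few genes that this rule names are not reported here. Lum, Thy1, Lhcgr, Ctsb, Crebbp and Rhox5 were named, and values of stromal and other testis cells given, after they were seen. The same holds for Clu, Inha, Cx3cr1, Batf3, Fscn1, Clec10a, Fcrla, Pax5, Cd3d, B2m, Aif1, Lyz2, Insl3 and Cyp17a1. The number of arrays limits the precision. Alternatives covered scaling, background correction, the authors' values, filters, outliers, probe choice, weights for arrays, the variance model, the replicate number as a block and leaving out each array.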

Additional observations from a re-analysis of the deposited data

Results flagged for a closer look

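Among 110 groups of 4 arrays examined for a sample far from the others, 5 were flagged by the ratio of the gap to the range. The cut-off would flag about 1 in 20 independent groups. These groups share arrays and some genes, so that rate gives no test of the number flagged. None of the 5 flagged was a group of a class II gene or of Cd74. In these 5 the far sample was young replicate 1, the array on which Cd74 and the D and B chains were low. For the stromal marker mean (centred log2) the ratio was 0.921, with −0.65 on young replicate 1 against 1.07 to 1.22 on the other young arrays. For Adgre1 it was 0.881, with −4.06 against −2.71 to −2.53. Among the genes nearest to Cd74 it was 0.981 for Fcgr2al1, with −3.38 against −1.46 to −1.42, and 0.844 for Dpp7, with −3.86 against −2.43 to −2.17. It was 0.907 for Gstp1, with −1.78 against −0.25 to −0.097. Fcgr2al1, Dpp7 and Gstp1 were examined because their profiles were nearest to that of Cd74, itself low on young replicate 1. That their far sample was this array therefore follows in part from the choice.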

How the results depend on the processing

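The median difference of the 6 genes tested stayed below 0 under all 24 alternatives, from −1.13 to −0.46, and with each array left out it ran from −1.01 to −0.46. Cd74, RT1-Da, RT1-Db1 and RT1-Bb kept lower aged means under each of the 24, and passed only with array weights and without young replicate 1. RT1-DMa turned to 0.0026 with quantile scaling, 0.070 with median scaling and 0.028 with normexp and quantile scaling. RT1-DMb turned to −0.40 with scaling to 4 spike-in probes, −0.031 without young replicate 4 and −0.035 without aged replicate 4 (up to 0.15, without young replicate 2), and the cause was not tested. The count of all genes called, 67, became 1330 with median scaling, 1004 with spike-in scaling, 633 with normexp and percentile scaling, 259 with normexp and quantile scaling, 270 with the trend and robust variance model and 4529 with array weights. It was 0 with the replicate number as a block, with unnamed probes included, without the filter on dim probes and without scaling, where an unadjusted limma p under 0.05 was reached by 3231, 4929, 3339 and 1389. Leaving out arrays gave 0 to 3776 calls, the most without young replicate 1 and at most 1 otherwise (1951 to 3009 at an unadjusted p under 0.05). Scaling moved the median gene from 0.11 to 0.26 with array medians and to −0.35 with spike-in RNA, and the percentile over spots, added after the data were seen, gave 97 calls. Deviations of same-numbered samples correlated at −0.26, −0.12, 0.44 and 0.35 across genes for replicates 1 to 4, so the numbers were not taken as pairs. Of the aged samples, replicate 3 alone correlated best with its own number, and the replicate block called none of the 6 genes.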
